A study of Rattus norvegicus with 3 samples.

Results

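This account covers 7 genes of glutamate uptake and D-amino acid handling, Slc1a1, Slc1a2, Slc1a3, Glul, Slc7a10, Srr and Ddo, among 23098 features measured in nuclei of the rat nucleus accumbens, a striatal region of motivation and reward. All 7 were found by symbol in the feature tables of the 3 libraries, each on 1 feature. The genes were selected on measured values of these same libraries: Ddo was higher in D2 medium spiny neurons and Slc7a10 was lower in astrocytes of high anxiety rats than of low anxiety rats. Those 2 differences are therefore given as descriptions and support nothing. Single-nucleus RNA libraries were made with the Chromium 3' chemistry 3.1 from tissue punches of this region in outbred Wistar rats. Their anxiety class had been assigned from an elevated plus maze and from open field and object tests. The high anxiety plus urolithin A library came from high anxiety rats that had received urolithin A, which gut bacteria form from dietary ellagitannins, for 2 months. The high anxiety library came from high anxiety rats without it, and the low anxiety library from low anxiety rats. The rats were 16 weeks old, and 5 hemispheres went into each library, so animals cannot be told apart within one. The labels used here name no sex. With 1 library per group there was no replicate, no test and no p-value. Differences below are thus differences of 2 libraries, and the 95% intervals in brackets hold counting error alone.

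After filters, 3421 nuclei remained in the urolithin A library, 3694 in high anxiety and 3379 in low anxiety, with median totals of 4726, 4549.5 and 3952 unique molecular identifiers (UMIs, each a captured transcript molecule). At most 6 cell barcodes were shared by a pair of libraries. Clusters were named from marker lists that did not hold the 7 genes, and the 7 genes took no part in clustering, so a class was not defined by them. Names mean "astrocyte-like" and so on, and the suffix is dropped below. The 15 astrocyte markers summed to 11410 CPM, the UMIs of a gene for each 1000000 of its class and library, in urolithin A astrocytes, 10085 in high anxiety and 10664 in low anxiety. Outside astrocytes the median marker stood between 0.182% and 1.78% of its astrocyte level, although Slc4a4, a bicarbonate transporter gene, reached 50.8% in D2 neurons. All 15 were at least 2-fold higher in the astrocyte cluster than in the other nuclei, and Gja1, which encodes a gap junction protein, led it. Glutamatergic neurons numbered 21, 198 and 99 nuclei in the urolithin A, high anxiety and low anxiety libraries, and neuroblasts 5, 113 and 39. These 2 classes were too small in the urolithin A library for a comparison between libraries.

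Glutamate released at synapses is cleared mainly by sodium-coupled transporters of astrocytes, which turn it into glutamine and return it to neurons. Slc1a2 and Slc1a3 encode the astrocytic transporters GLT-1 and GLAST, Slc1a1 encodes the transporter EAAC1 best known from neurons, and Glul encodes glutamine synthetase. D-serine, a co-agonist of NMDA receptors, is made from L-serine by serine racemase, the product of Srr, and crosses membranes through Asc-1, the product of Slc7a10. D-aspartate, which also acts on NMDA receptors, is broken down by D-aspartate oxidase, the product of Ddo.

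Promoter windows were matched in RefSeq, build GRCr8, for 6 of the 7 genes, Slc1a1 being the other. The windows run from 250 bases before to 50 after an annotated start, and 5 are printed here. Those of Slc1a2, Slc1a3, Slc7a10 and Glul are shown because these genes shared a high level in astrocytes, and that of Ddo because its level differed between the libraries in neurons. Capitals mark 3 short motifs found on either strand: the GC box GGGCGG, the CCAAT box CCAAT, and the NFI-type motif TTGGC, whose reverse complement GCCAA can overlap a CCAAT box. Slc1a2 lies on the plus strand at chr3:109459859-109460158, the first of 2 annotated windows. Slc1a3 lies on the minus strand at chr2:59557759-59558058, the first of 3 overlapping windows. Slc7a10 lies on the plus strand at chr1:96965872-96966171. Glul lies on the plus strand at chr13:68575816-68576115, the second of 2 windows. Ddo lies on the plus strand at chr20:45673327-45673626.
Slc1a2: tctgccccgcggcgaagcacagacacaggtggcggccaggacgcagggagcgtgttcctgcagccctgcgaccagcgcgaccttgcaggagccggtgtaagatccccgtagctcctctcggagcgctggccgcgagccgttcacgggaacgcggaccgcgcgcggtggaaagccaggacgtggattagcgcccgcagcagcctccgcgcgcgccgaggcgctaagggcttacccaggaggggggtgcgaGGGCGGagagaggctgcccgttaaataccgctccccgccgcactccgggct
Slc1a3: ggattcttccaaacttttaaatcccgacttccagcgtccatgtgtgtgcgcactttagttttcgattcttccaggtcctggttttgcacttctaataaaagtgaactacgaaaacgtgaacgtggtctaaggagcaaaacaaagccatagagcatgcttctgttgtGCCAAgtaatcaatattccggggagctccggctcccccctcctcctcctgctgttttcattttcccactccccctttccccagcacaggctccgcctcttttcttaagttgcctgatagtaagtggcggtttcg
Slc7a10: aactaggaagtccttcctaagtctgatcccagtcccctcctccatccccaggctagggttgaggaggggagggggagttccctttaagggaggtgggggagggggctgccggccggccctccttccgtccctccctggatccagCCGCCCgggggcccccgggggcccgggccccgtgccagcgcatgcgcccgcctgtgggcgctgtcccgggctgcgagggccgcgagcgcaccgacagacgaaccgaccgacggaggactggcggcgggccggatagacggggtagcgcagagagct
Glul: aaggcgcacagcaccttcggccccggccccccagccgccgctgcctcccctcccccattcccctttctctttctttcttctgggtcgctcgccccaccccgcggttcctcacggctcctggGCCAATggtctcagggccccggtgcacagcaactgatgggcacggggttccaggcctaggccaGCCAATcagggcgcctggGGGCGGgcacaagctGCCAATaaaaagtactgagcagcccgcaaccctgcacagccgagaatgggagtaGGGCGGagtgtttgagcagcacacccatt
Ddo: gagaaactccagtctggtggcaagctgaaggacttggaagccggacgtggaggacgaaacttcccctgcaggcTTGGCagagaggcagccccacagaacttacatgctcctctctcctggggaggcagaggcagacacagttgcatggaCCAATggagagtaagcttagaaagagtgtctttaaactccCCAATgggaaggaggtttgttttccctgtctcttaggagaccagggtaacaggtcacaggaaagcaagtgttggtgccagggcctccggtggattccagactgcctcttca

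Among 33365 distinct promoter windows of this length, 33.1% held a GC box, 37.5% a CCAAT box and 45.9% an NFI-type motif. The Slc1a2 and Slc7a10 windows each held 1 GC box and were rich in G and C, at 71.0% and 72.3% of bases. The Slc1a3 window held 1 NFI-type motif and had 48.3% G and C. The Glul window held 2 GC boxes and 3 CCAAT boxes, and each CCAAT box overlapped an NFI-type motif. The windows not printed differed for Glul and Slc1a2. The first Glul window held 1 GC box, 1 CCAAT box and 0 NFI-type motifs, with 54.7% G and C. The second Slc1a2 window held 0 GC boxes and 1 NFI-type motif, with 46.3% G and C. The description of these 2 genes thus depends on the window shown. The Ddo window held 2 CCAAT boxes and 1 NFI-type motif. No one of the 3 motifs was in all 4 printed windows of the genes high in astrocytes, and each motif is frequent in promoters at large. A match of so few letters is a description of the sequence and not a binding site.

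Slc1a2 was first of all an astrocyte gene in these nuclei. In astrocytes it had 6701 CPM in the urolithin A library, 7079.9 CPM in high anxiety and 6534 CPM in low anxiety. Glutamatergic neurons came next, with 341, 299 and 231 CPM in the same order, and oligodendrocyte precursors had 176, 127 and 130.3 CPM. The ranges of those 3 classes over the libraries did not overlap. The glutamatergic signal was uneven: cluster 19, led by Ccn2 and Chrna5, had 613 CPM over the 3 libraries, and cluster 12, led by Rtn4r and Cck, had 83.7 CPM. Medium spiny neurons, the projection neurons of the accumbens, had between 6.20 and 18.1 CPM in any library, and oligodendrocytes at most 7.92 CPM. Neuroblasts and cholinergic interneurons overlapped oligodendrocyte precursors, but rested on 38 and 66 UMIs in all.

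**Figure D1:**
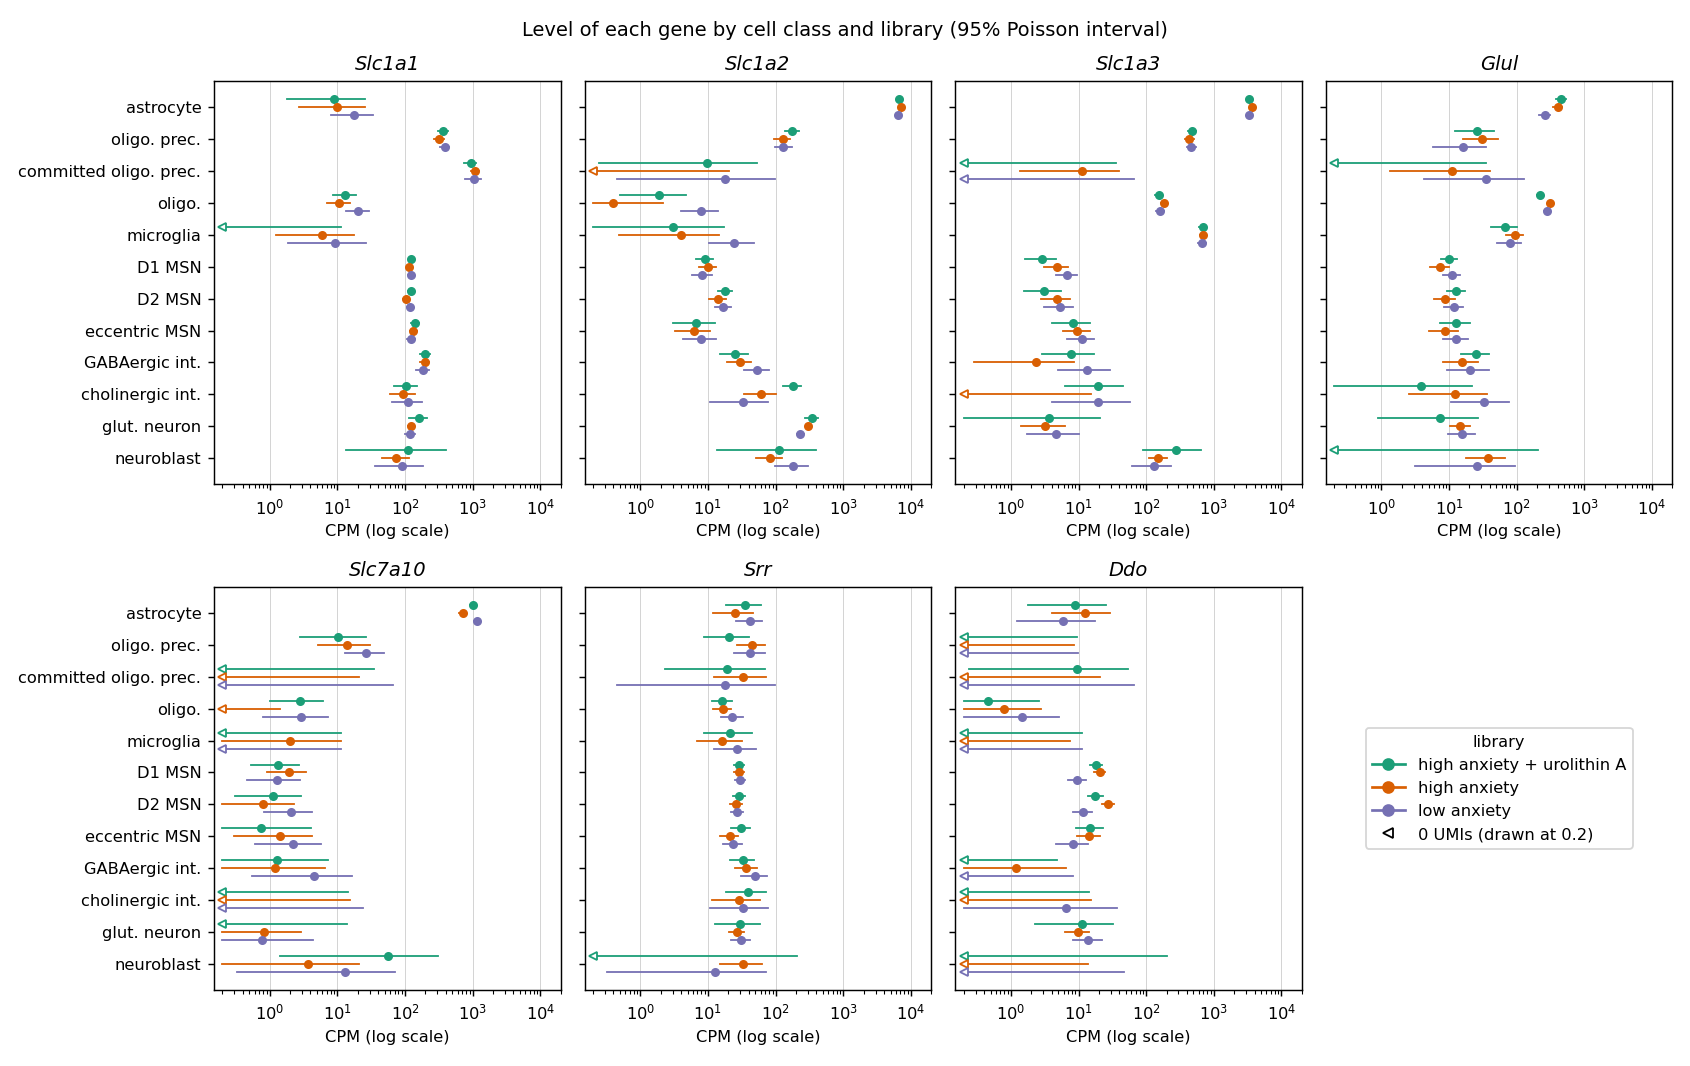
Level of each of the 7 genes in 12 classes, 1 panel per gene, with CPM on a log axis. Points are libraries, lines are 95% Poisson intervals and open triangles mark 0 UMIs. Slc1a2 and Slc7a10 stand highest in astrocytes in all 3 libraries, Slc1a1 stands highest in committed oligodendrocyte precursors, and Srr is spread over all classes.

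Slc1a3 had 3283 CPM in urolithin A astrocytes, 3689.9 CPM in high anxiety and 3315 CPM in low anxiety. It was also present in microglia, with 681, 685 and 676 CPM, and in oligodendrocyte precursors, with 476, 434 and 465 CPM. Oligodendrocytes followed with 153, 184 and 159 CPM. These 4 classes kept this order in every library, with no overlap between neighbours, while neuroblasts, at 128 to 276 CPM, overlapped oligodendrocytes. In oligodendrocytes the gene varied by cluster: cluster 6, led by Slc5a11 and Rasgrp3, had 284 CPM, cluster 1, led by Mal and Ptgds, had 138 CPM, and cluster 14, led by Ackr4 and Tnfaip6, had 38.0 CPM; cluster 26 held only 9 UMIs. Neurons were near the bottom: D1 neurons had at most 6.79 CPM, D2 neurons at most 5.23 CPM and glutamatergic neurons at most 4.68 CPM in any library.

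The ratio of Slc1a2 to Slc1a3 UMIs differed widely between astrocytes, the other glia and glutamatergic neurons. Astrocytes had 2.04 Slc1a2 UMIs per Slc1a3 UMI in the urolithin A library, 1.92 in high anxiety and 1.97 in low anxiety. Microglia had 0.00450, 0.00585 and 0.0359, so 342 Slc1a3 UMIs in high anxiety microglia stood beside 2 Slc1a2 UMIs. Oligodendrocytes had 0.0122, 0.00213 and 0.0498, which overlapped microglia within counting error in every library, and oligodendrocyte precursors had 0.369, 0.292 and 0.280. Glutamatergic neurons lay on the other side of astrocytes, with 92.0, 92.1 and 49.3 Slc1a2 UMIs per Slc1a3 UMI, the urolithin A value resting on 1 Slc1a3 UMI. The ratios of microglia and of glutamatergic neurons lay outside the astrocyte interval in each library. The part of RNA carried over between nuclei was not tested. In D1 neurons the ratios of 3.13, 2.08 and 1.22 were near that of astrocytes, at levels of under 10 CPM for both genes.

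**Figure D2:**
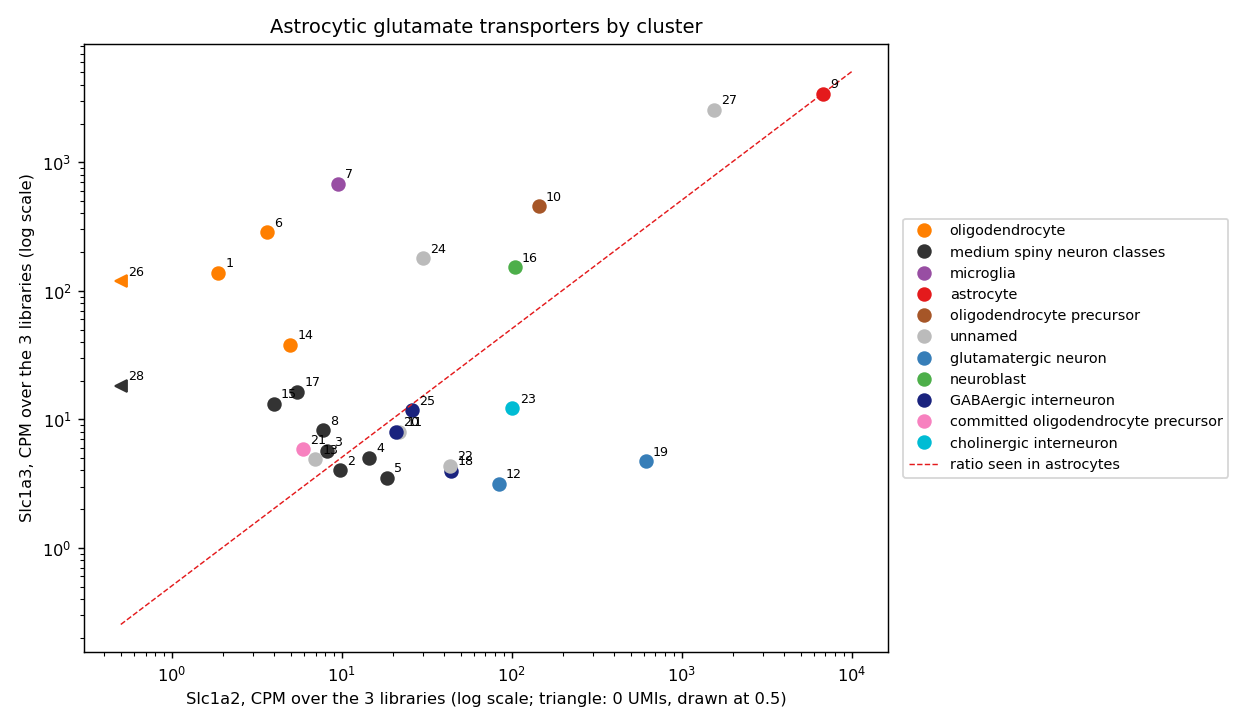
Slc1a2 (x) and Slc1a3 (y) in each numbered cluster, as CPM over the 3 libraries on log axes, coloured by class. The dashed line carries the ratio of astrocytes (cluster 9). Microglia and most oligodendrocyte clusters lie far above it, and glutamatergic clusters 12 and 19 lie below it.

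Slc1a1 showed the reverse of the astrocytic pattern. Committed oligodendrocyte precursors, the cells between precursor and myelinating stage, had 929 CPM in the urolithin A library, 1081 CPM in high anxiety and 1032 CPM in low anxiety, from 27, 36 and 16 nuclei. Oligodendrocyte precursors had 364, 319 and 385 CPM, and GABAergic interneurons 198, 196 and 182 CPM. These 3 classes did not overlap in their ranges over the libraries. The other neurons formed 1 group of overlapping neighbours, among them eccentric medium spiny neurons at 122 to 141 CPM, D1 neurons at 115 to 122 CPM and D2 neurons at 105 to 123 CPM. Mature oligodendrocytes had only 10.6 to 20.1 CPM and astrocytes 8.82 to 17.8 CPM, ranges that overlapped. Microglia had at most 3 UMIs in any library. Within the oligodendrocyte lineage Slc1a1 was therefore high before and low after maturation in all 3 libraries.

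Glul was shared by astrocytes and oligodendrocytes, whose ranges overlapped. Astrocytes had 453 CPM in the urolithin A library, 402 CPM in high anxiety and 259 CPM in low anxiety, and oligodendrocytes had 221, 309.5 and 282 CPM. Since oligodendrocytes were the larger class, they held 1656 Glul UMIs in all, against 446 in astrocytes. Cluster 14, the oligodendrocytes led by Ackr4, had 28.1 CPM, against 307 CPM in cluster 1 and 287 CPM in cluster 6. Microglia had 67.4, 94.1 and 78.8 CPM. Medium spiny neurons of every class stayed between 7.40 and 12.8 CPM.

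Slc7a10 was the gene most restricted to 1 class. Astrocytes held 1212 of its UMIs, at 1006 CPM in the urolithin A library, 712 CPM in high anxiety and 1155 CPM in low anxiety. The next class with more than a few UMIs, oligodendrocyte precursors, had 10.2, 14.1 and 26.6 CPM. D1 and D2 neurons had at most 2.03 CPM. To compare shares of nuclei at one depth, nuclei of at least 2000 UMIs were thinned to 2000 UMIs and shallower nuclei were left out. That kept 103 of 124 urolithin A, 118 of 139 high anxiety and 118 of 223 low anxiety astrocytes. A Slc7a10 UMI was then seen in 81.6% of urolithin A astrocytes, 77.1% of high anxiety and 80.5% of low anxiety astrocytes (87.9%, 85.6% and 91.5% of all astrocytes, unthinned). In microglia, which should lack the gene, it was seen in 0 of 67, 0 of 108 and 0 of 39 thinned nuclei, of 169, 259 and 203 in all. With 3 counts as the limit that a count of 0 allows, these shares could reach 4.48%, 2.78% and 7.69%. Median totals were 2649, 2707 and 2095 UMIs in astrocytes, and 1879, 1889 and 1599 UMIs in microglia.

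Srr was not restricted to any class. Its level over the 3 libraries lay between 17.9 CPM in oligodendrocytes and 37.9 CPM in GABAergic interneurons, and most neighbouring classes overlapped in their ranges. D1 neurons had 28.8 CPM in the urolithin A library, 28.8 CPM in high anxiety and 29.7 CPM in low anxiety, and astrocytes had 35.3, 25.0 and 41.5 CPM from 12, 10 and 21 UMIs. The gene of the enzyme that makes D-serine thus had overlapping ranges in neurons and astrocytes, while the transporter gene Slc7a10 was concentrated in astrocytes. By library values alone, GABAergic interneurons, at 32.5 to 49.4 CPM, lay above D1 neurons, at 28.8 to 29.7 CPM. D1 neurons in turn lay above oligodendrocytes, at 16.3 to 23.0 CPM. Counting error was not weighed in that order. The GABAergic values rested on 78 UMIs in all, 43 of them from cluster 18, whose name was weak. Most other classes could not be placed in that order.

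Ddo was a sparse gene, highest among the named classes in medium spiny neurons and glutamatergic neurons over the 3 libraries. D2 neurons had 17.8 CPM in the urolithin A library, 27.6 CPM in high anxiety and 11.6 CPM in low anxiety, and D1 neurons had 18.0, 20.5 and 9.55 CPM. Eccentric medium spiny neurons had 14.8, 14.3 and 8.35 CPM, and glutamatergic neurons 11.1, 9.72 and 14.0 CPM, all with overlapping ranges. GABAergic interneurons held 1 Ddo UMI and oligodendrocytes 5 in all. Microglia, oligodendrocyte precursors and neuroblasts held 0. Astrocytes held 11 Ddo UMIs, too few to place them in the order.

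Between libraries, ratios were taken in the 7 classes with at least 100 nuclei in every library, for genes with at least 100 UMIs in 1 of the 2 libraries. High anxiety was set against low anxiety, and urolithin A against high anxiety and against low anxiety. Each library enters a pair of these comparisons, so they are not independent. Of 49 pairs of gene and class, 15 were measured for high anxiety over low anxiety, and 4 passed 1.5-fold. These were Ddo in D1 and in D2 neurons and Glul in astrocytes, which were higher in high anxiety, and Slc7a10 in astrocytes, which was lower. For urolithin A over high anxiety 16 were measured and 1 passed, Ddo in D2 neurons, which was lower with urolithin A. For urolithin A over low anxiety 14 were measured and 1 passed, Glul in astrocytes, which was higher. The minimum favours a sparse gene where 1 library is high: Ddo entered through the high anxiety library in both neuron classes, with 108 UMIs in D1 and 105 in D2 neurons. For urolithin A over low anxiety Ddo fell under the minimum, with 95 and 45 UMIs in D1 neurons and 63 and 40 in D2 neurons. Its log2 ratios there were 0.92 (0.39 to 1.46) and 0.61 (0.02 to 1.22), both past 1.5-fold, and with a minimum of 50 UMIs they would make 3 in place of 1. The other pairs of gene and class are given by their levels alone.

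Because of that minimum the counts support nothing about the 7 genes as a set. They stand beside the share of all measured features past 1.5-fold in either direction. For high anxiety over low anxiety that share was 9.17% in astrocytes, where 2 of 4 measured genes passed. It was 5.03% in D1 neurons, with 1 of 3 passing, and 4.26% in D2 neurons, with 1 of 2 passing. In eccentric neurons it was 5.29%, in oligodendrocytes 3.8%, in precursors 5.8% and in microglia 7.79%, and 0 of the genes passed there. For urolithin A over high anxiety it was 2.34% in D2 neurons, with 1 of 3 passing. It was 4.67% in astrocytes, 2.08% in D1 neurons, 2.06% in eccentric neurons, 0.908% in oligodendrocytes, 3.49% in precursors and 2.69% in microglia, with 0 passing. For urolithin A over low anxiety it was 6.51% in astrocytes, with 1 of 4 passing. It was 3.87% in D1 neurons, 3.7% in D2 neurons, 4.87% in eccentric neurons, 2.73% in oligodendrocytes, 4.51% in precursors and 3.3% in microglia, with 0 passing. Ddo and Slc7a10 were chosen on the first comparison, so their passing there was fixed by the choice, and the urolithin A over high anxiety comparison shares its high anxiety library.

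**Figure D3:**
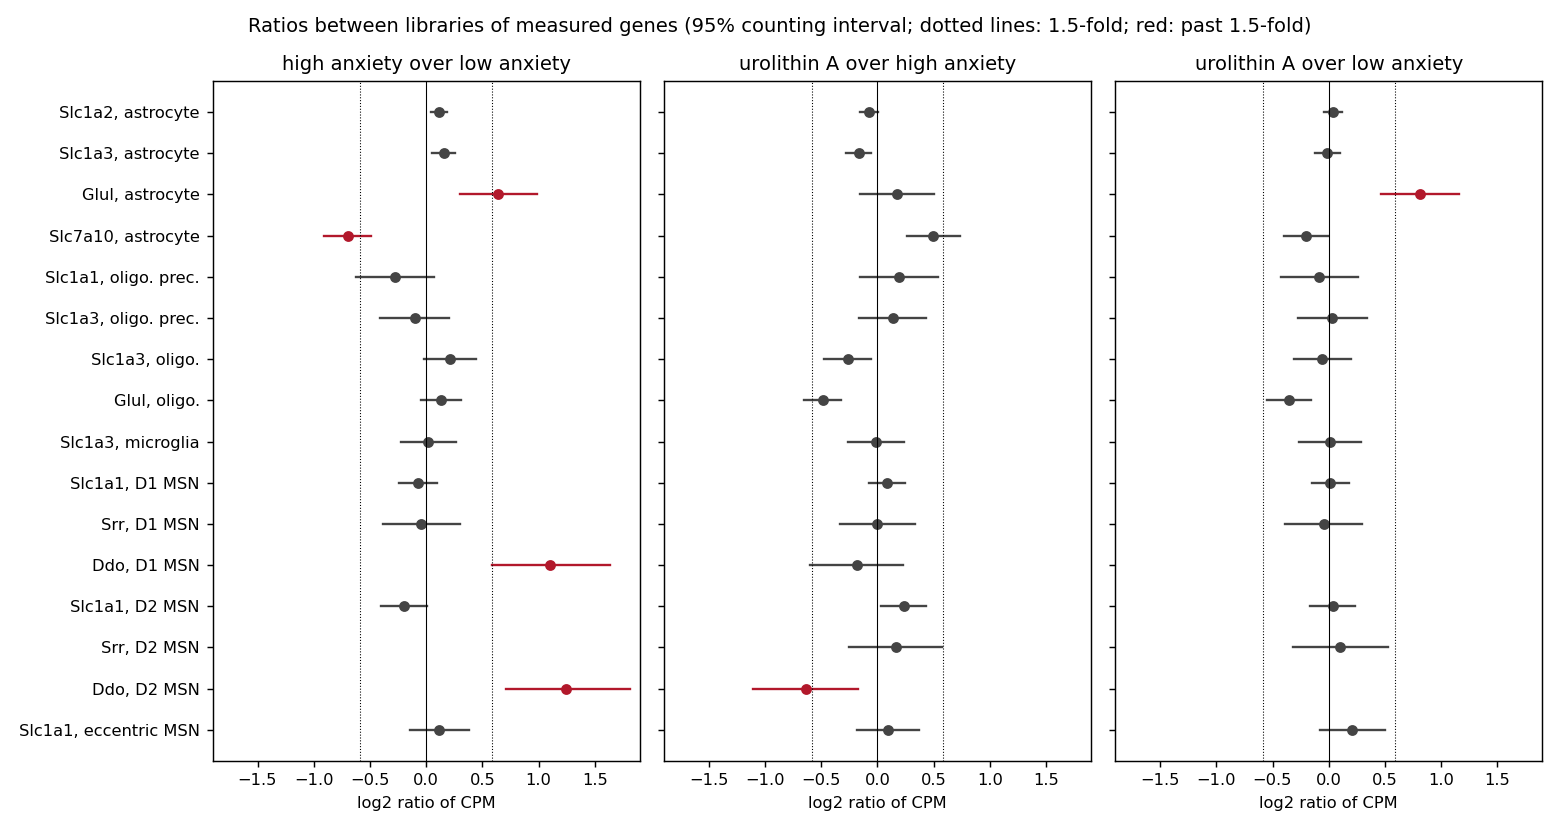
Log2 ratios of CPM between libraries for the measured genes, 1 row per gene and class, with 95% counting intervals. Dotted lines mark 1.5-fold and red marks values past it: 4 of 15 for high anxiety over low anxiety, 1 of 16 for urolithin A over high anxiety and 1 of 14 for urolithin A over low anxiety.

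Slc7a10 in astrocytes had 342 UMIs in the urolithin A library, 285 in high anxiety and 585 in low anxiety, which gave the 1006, 712 and 1155 CPM above. High anxiety was the low library, and its interval of 632 to 800.2 CPM did not meet those of urolithin A, 902 to 1118 CPM, or low anxiety, 1063 to 1252 CPM. The log2 ratio was -0.70 (-0.91 to -0.49) for high anxiety over low anxiety. It was 0.50 (0.27 to 0.73) for urolithin A over high anxiety, under 1.5-fold, and -0.20 (-0.40 to -0.00) for urolithin A over low anxiety. The depth of the nuclei moved with this difference. Only 21 of 124 urolithin A astrocytes and 21 of 139 in high anxiety had under 2000 UMIs, against 105 of 223 in low anxiety. The shallow low anxiety nuclei had 1515 CPM of Slc7a10, from 247 UMIs, against 699 CPM in the shallow high anxiety nuclei, from 25 UMIs. In nuclei of at least 2000 UMIs the levels were 991 CPM with urolithin A, 714 CPM in high anxiety and 983.9 CPM in low anxiety, and the log2 ratio of high anxiety over low anxiety was -0.46 (-0.70 to -0.23), under 1.5-fold. With those same deeper nuclei thinned to 2000 UMIs each it was -0.33 (-0.62 to -0.03). Urolithin A over low anxiety was then 0.01 (-0.22 to 0.24) in the deeper nuclei and 0.12 (-0.16 to 0.40) when thinned. High anxiety was still the lowest of the 3 libraries in both settings. Medium spiny neuron markers in the astrocyte class summed to 1997 CPM with urolithin A, 1955 CPM in high anxiety and 3020.4 CPM in low anxiety; their part in the result was not tested.

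Glul in astrocytes had 154 UMIs in the urolithin A library, 161 in high anxiety and 131 in low anxiety. Low anxiety was the low library at 259 CPM, with an interval of 216 to 307 CPM that lay below those of urolithin A, 384 to 530.4 CPM, and high anxiety, 343 to 469.7 CPM. The log2 ratio was 0.64 (0.30 to 0.98) for high anxiety over low anxiety and 0.81 (0.46 to 1.16) for urolithin A over low anxiety. Urolithin A and high anxiety overlapped, with a log2 ratio of 0.17 (-0.16 to 0.50). In nuclei of at least 2000 UMIs the ratio of high anxiety over low anxiety was 0.54 (0.16 to 0.93), just under 1.5-fold, and that of urolithin A over low anxiety was 0.71 (0.32 to 1.11). Thinned, they were 0.42 (-0.04 to 0.88) and 0.52 (0.05 to 0.99), both under 1.5-fold. With no filter on nuclei they were 0.57 (0.22 to 0.91) and 0.51 (0.15 to 0.87), also under 1.5-fold. Keeping likely doublets brought high anxiety over low anxiety to 0.90, past 1.5-fold, and urolithin A over high anxiety to -0.09. Oligodendrocyte markers, from a class that also holds Glul, summed to 729 CPM in urolithin A astrocytes, 392 CPM in high anxiety and 381 CPM in low anxiety; their part in the result was not tested. A Glul UMI was seen in 47.6% of thinned urolithin A astrocytes, 53.4% in high anxiety and 45.8% in low anxiety, shares whose intervals overlapped (58.9%, 61.9% and 42.2% of all astrocytes, unthinned). In D1 neurons the thinned shares were 1.60%, 1.54% and 2.94%.

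In oligodendrocytes Glul had another order. It had 473 UMIs in the urolithin A library, 791 in high anxiety and 392 in low anxiety, and the urolithin A library was the low one at 221 CPM. The log2 ratio was -0.49 (-0.66 to -0.32) for urolithin A over high anxiety and -0.35 (-0.55 to -0.16) for urolithin A over low anxiety, both under 1.5-fold. High anxiety over low anxiety gave 0.13 (-0.04 to 0.31). Both large clusters had the same low library: cluster 1 had 248 CPM with urolithin A, 349 CPM in high anxiety and 319 CPM in low anxiety, and cluster 6 had 229, 330.1 and 302 CPM. A stricter filter on nuclei asked for 1000 genes or more and no more than 1% mitochondrial UMIs. It left 350 urolithin A, 346 high anxiety and 168 low anxiety oligodendrocytes. This filter turned the urolithin A over low anxiety value round to 0.39. It brought high anxiety over low anxiety to 0.62 (0.19 to 1.06), past 1.5-fold, and urolithin A over high anxiety to -0.23. Thinned to 2000 UMIs, urolithin A over high anxiety was -0.65, past 1.5-fold.

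**Figure D4:**
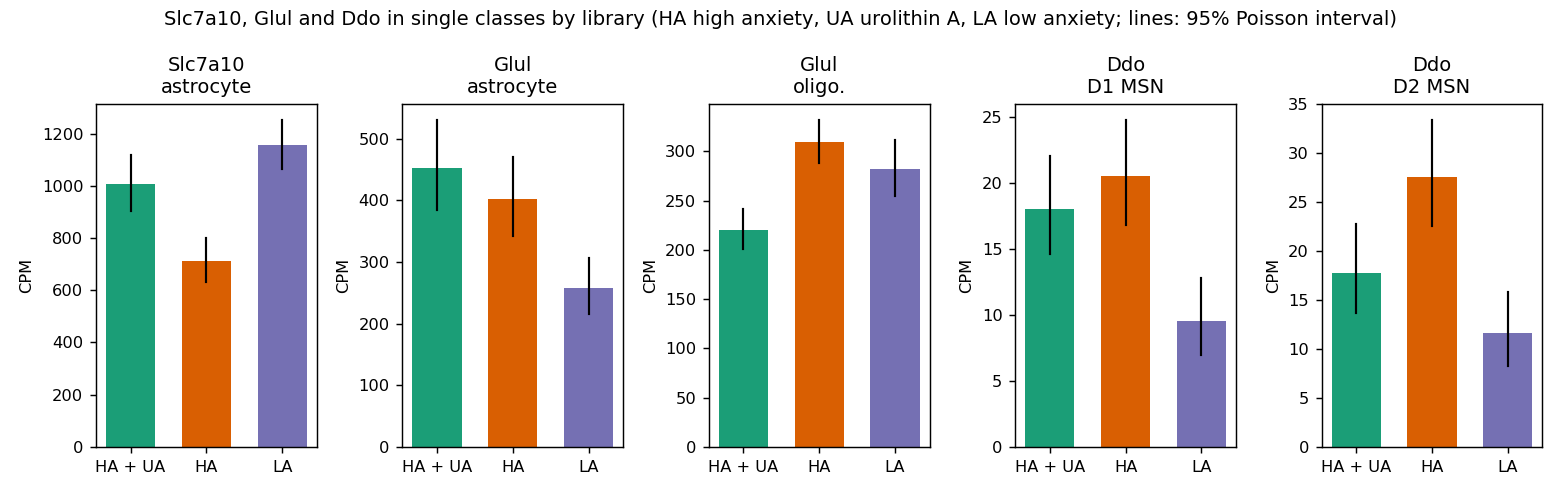
CPM of Slc7a10 and Glul in astrocytes, Glul in oligodendrocytes, and Ddo in D1 and D2 neurons, in bars from 0 with 95% Poisson intervals, for high anxiety plus urolithin A (HA + UA), high anxiety (HA) and low anxiety (LA). High anxiety is lowest for Slc7a10 at 712 CPM and highest for Ddo in D2 neurons at 27.6 CPM, and low anxiety is lowest for Glul in astrocytes at 259 CPM.

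Ddo had 63 UMIs in urolithin A D2 neurons, 105 in high anxiety and 40 in low anxiety. High anxiety was the high library: its interval of 22.5 to 33.4 CPM lay above that of low anxiety, 8.31 to 15.8 CPM, and met that of urolithin A, 13.7 to 22.7 CPM, at the edge. The log2 ratio was 1.245 (0.71 to 1.81) for high anxiety over low anxiety and -0.63 (-1.11 to -0.17) for urolithin A over high anxiety. Both D2 clusters had this order, with 21.3, 30.9 and 12.2 CPM in cluster 4 and 15.02, 23.5 and 10.5 CPM in cluster 5, for urolithin A, high anxiety and low anxiety. In D1 neurons Ddo had 95, 108 and 45 UMIs. There low anxiety was again the low library, with a log2 ratio of 1.10 (0.59 to 1.64) for high anxiety over low anxiety. Urolithin A over high anxiety gave -0.19 (-0.60 to 0.23), an interval that holds 0. Over the 3 libraries, 136 of the D1 UMIs came from cluster 3, whose D1 name was weak, and 112 from cluster 2. In the largest D1 cluster alone, high anxiety over low anxiety was 0.98. Eccentric neurons had 20, 30 and 15 UMIs, too few for a ratio.

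The Ddo values rested on few nuclei. A Ddo UMI was seen in 9.96% of urolithin A, 17.2% of high anxiety and 6.83% of low anxiety D2 neurons, at median depths of 6392, 7277 and 5703 UMIs. With nuclei of at least 2000 UMIs thinned to that depth, which kept 527 of 532, 503 of 506 and 555 of 556 D2 neurons, the shares were 3.42%, 2.98% and 1.26% in D2 neurons and 4.39%, 4.16% and 0.936% in D1 neurons. In microglia, which should lack the gene, 0 of 67, 0 of 108 and 0 of 39 thinned nuclei had one. The thinned D2 counts were 18 UMIs with urolithin A and 16 in high anxiety, a log2 ratio of 0.10 (-0.95 to 1.17), so the lower value with urolithin A was not seen in the thinned counts. The high anxiety over low anxiety ratio in thinned D2 neurons was 1.14 (-0.17 to 2.57). In thinned D1 neurons it was 2.15. In D1 and D2 neurons low anxiety was thus the lowest library for Ddo under both treatments of depth, though the thinned D2 interval held 0. The place of urolithin A differed between the treatments. Glutamatergic neurons held 45 Ddo UMIs in all, with only 21 nuclei in the urolithin A library, too few to order the libraries.

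In astrocytes no ratio of the main uptake transporters passed 1.5-fold. There the log2 ratio of Slc1a2 was 0.12 (0.04 to 0.19) for high anxiety over low anxiety, -0.08 (-0.16 to 0.00) for urolithin A over high anxiety and 0.04 (-0.04 to 0.11) for urolithin A over low anxiety. Slc1a3 gave 0.15 (0.05 to 0.26), -0.17 (-0.28 to -0.06) and -0.01 (-0.12 to 0.10). With 1116 or more UMIs behind each value, counting error alone left room for a difference of at most 0.28 in either gene. Slc1a3 in microglia gave 0.02 (-0.23 to 0.27), -0.01 (-0.26 to 0.24) and 0.01 (-0.26 to 0.29) in the same comparisons. In oligodendrocytes it gave 0.21 (-0.02 to 0.45), -0.27 (-0.47 to -0.06) and -0.06 (-0.31 to 0.20). The stricter filter moved the oligodendrocyte values to 0.99 (0.49 to 1.52) for high anxiety over low anxiety, from 163 and 41 UMIs, and to 0.63 (0.11 to 1.18) for urolithin A over low anxiety, both past 1.5-fold. In oligodendrocytes of at least 2000 UMIs they were 0.02 (-0.27 to 0.32) and -0.16 (-0.47 to 0.15). In oligodendrocyte precursors Slc1a3 gave -0.10, 0.13 and 0.03.

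Slc1a1 also passed 1.5-fold in no ratio. In D1 neurons it gave -0.07 (-0.24 to 0.10) for high anxiety over low anxiety and 0.08 (-0.08 to 0.25) for urolithin A over high anxiety. In D2 neurons it gave -0.20 (-0.40 to 0.01) and 0.23 (0.03 to 0.43), and in oligodendrocyte precursors -0.27 (-0.62 to 0.07) and 0.19 (-0.16 to 0.54). In eccentric neurons it gave 0.12 (-0.15 to 0.38) and 0.09 (-0.18 to 0.37). Without clusters 17 and 28, which came mostly from low anxiety, it gave 0.20 and 0.08. With other processing the Slc1a1 values moved further from 0, though none passed 1.5-fold. For high anxiety over low anxiety the furthest were -0.54 in thinned D2 neurons and -0.44 in precursors under the stricter filter. For urolithin A over high anxiety the furthest was 0.38 in thinned D1 neurons. Srr in D1 neurons gave -0.04 (-0.38 to 0.30) for high anxiety over low anxiety and -0.00 (-0.33 to 0.33) for urolithin A over high anxiety. The wide Srr intervals leave room for moderate differences.

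Of the 63 listed genes of the same pathways, all were in the files and few passed 1.5-fold. In astrocytes 18 were measured for high anxiety over low anxiety and 0 passed, where 9.17% of all measured features did. Their median log2 ratio was -0.15, against -0.01 over all measured features. The furthest were Gldc, of the glycine cleavage system, at 0.58 (0.32 to 0.83), and Atp1b2, a sodium pump subunit gene and like Aqp4 also an astrocyte marker here, at -0.52 (-0.71 to -0.33). For urolithin A over high anxiety 14 were measured, and Aqp4, the water channel gene, was higher while Gldc was lower. The share of all measured features past 1.5-fold was 4.67% there. Aqp4 had 759 CPM with urolithin A and 467 CPM in high anxiety, a log2 ratio of 0.70 (0.42 to 0.98). Gldc had 427 and 682 CPM, a log2 ratio of -0.68 (-0.98 to -0.38). Slc1a4, a neutral amino acid transporter gene of the same family as the uptake genes, had 356 CPM with urolithin A, 262 CPM in high anxiety and 342 CPM in low anxiety. High anxiety was its lowest library, as for Slc7a10, and no Slc1a4 ratio passed 1.5-fold. It was the only measured gene of the other 4 family members listed. Between urolithin A and low anxiety 0 of 18 passed, against 6.51% of all measured features, and Aqp4 was at 0.48 (0.23 to 0.73).

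In medium spiny neurons the pathway genes past 1.5-fold were Slc3a2, Amt and Rimkla. Slc3a2 encodes the heavy chain with which Asc-1 and several other amino acid exchangers pair. It had 106 CPM with urolithin A and 65.4 CPM in high anxiety in D2 neurons, a log2 ratio of 0.69 (0.46 to 0.93). In eccentric neurons it had 145 and 83.9 CPM, a log2 ratio of 0.79 (0.49 to 1.10). Other Slc3a2 ratios stayed under 1.5-fold: urolithin A over high anxiety gave 0.51 in D1 neurons, 0.45 in microglia and 0.38 in oligodendrocyte precursors. High anxiety over low anxiety gave -0.57 in D2 neurons, -0.55 in eccentric neurons, -0.43 in microglia and -0.56 in precursors. The high anxiety library was thus the low one for Slc3a2 in each of these classes. Amt, of the glycine cleavage system, was lower in D1 neurons of both high anxiety libraries, with 26.4 CPM in each against 40.96 CPM in low anxiety and log2 ratios of -0.64 (-0.96 to -0.31). Rimkla, which makes N-acetylaspartylglutamate, was lower in D1 neurons with urolithin A than in low anxiety, at 21.8 and 32.9 CPM. In D1 neurons 1 of 24 measured passed for high anxiety over low anxiety, against 5.03% of all measured features. There 0 of 23 passed for urolithin A over high anxiety (2.08%) and 2 of 24 for urolithin A over low anxiety (3.87%). In D2 neurons the counts were 0 of 19 (4.26%), 1 of 20 (2.34%) and 0 of 19 (3.7%) in the same order. In eccentric neurons they were 0 of 15 (5.29%), 1 of 15 (2.06%) and 0 of 13 (4.87%). In oligodendrocytes Pc, the gene of pyruvate carboxylase, was the 1 of 19 past 1.5-fold for high anxiety over low anxiety, at 0.72 (0.26 to 1.21). The share of all measured features was 3.8% there. In microglia and oligodendrocyte precursors 0 passed in any comparison, of at most 3 and 5 measured. The shares of all measured features were 2.69% to 7.79% in microglia and 3.49% to 5.8% in precursors.

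Where no pathway gene passed in a class, the following were among the 2 furthest from 0, beside those already given. For urolithin A over high anxiety, Slc25a13, an aspartate-glutamate carrier gene, was at -0.45 in D1 neurons. In oligodendrocytes Pc was at -0.44 and Glud1, glutamate dehydrogenase, at 0.41. Arl6ip5, whose product binds EAAC1, was at 0.39 in microglia. For high anxiety over low anxiety, Slc38a7, a glutamine transporter gene, was at -0.44 in D2 neurons, Slc7a8, an amino acid exchanger gene, at -0.41 in eccentric neurons, Arl6ip5 at -0.38 in microglia and Slc38a3, another glutamine transporter gene, at -0.32 in precursors. With urolithin A set over low anxiety, D2 neurons had Arl6ip5 at 0.38, and eccentric neurons had Slc7a8 at -0.54. In the same comparison oligodendrocytes had Phgdh, the first enzyme of serine synthesis, at -0.43 and Got2, an aspartate aminotransferase gene, at 0.35. Microglia had Aspa, aspartoacylase, at 0.41 and Slc3a2 at 0.02, and precursors had Arl6ip5 at 0.49.

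Genes with the most similar pattern were named by the Pearson correlation of log2(CPM + 10) over 24 sums of 8 classes and 3 libraries, among 10364 genes. The sums of 1 library share its depth, so the values are descriptive. Slc7a10 was closest to Btbd17, at 0.994, and then to Slc15a2 and Cldn10. Slc1a2 was closest to F3, at 0.984, and then to Arhgef26 and Rorb, and Slc1a3 to Tcf7l2, at 0.985, and then to Acadl and Zfp36l2. Glul was closest to Srebf1, at 0.976, and then to Sorbs3 and Msmo1. Slc1a1 was closest to Lrrtm4, at 0.978, and then to Mmp16 and Mgat5b. Ddo was closest to Zfhx4, at 0.942, and then to Acvr1c and Car12. Srr had no close match: its nearest genes, Lrp3, Sfxn3 and Mpped1, reached only 0.773, 0.758 and 0.743.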

How the data were processed

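The deposited matrices held counts of UMIs per feature and barcode for 3 libraries, which the file headers credit to Cell Ranger 7.1.0; the build was mRatBN7.2 per the submitters' processing notes. Library totals were 19162530 UMIs (urolithin A), 22095390 (high anxiety) and 16728049 (low anxiety). No source used here says whether the authors removed free RNA or counted introns. The filter on nuclei asked for 500 genes or more and no more than 5% mitochondrial UMIs (3520 kept, 3810 and 3476 in the same order). Scrublet, run within each library in scanpy 1.11.5, ranked likely doublets, and the top 0.8% per 1000 nuclei were removed (99, 116 and 97). Counts scaled to 10000 and log-transformed were reduced over 2000 variable genes, without mitochondrial genes and the 7 genes described, to 30 components with scaling within library. Leiden clustering (leidenalg 0.10.2, 15 neighbours, resolution 1, seed 7) gave 28 clusters. Of 17 marker lists, those with at least 3 markers 2-fold higher, at 20 or more UMIs and 10 or more CPM, could name a cluster, and the greatest mean log2 fold decided. Medium spiny neurons were then split by their D1, D2 and eccentric lists. Where another list had more markers among a cluster's 10 leading genes, the cluster stayed unnamed (361, 180 and 193 nuclei). The D1 name of cluster 3 was weak, with a mean log2 fold of 0.379 and 0 D1 markers among its leading genes. Weaker still were the names of cluster 17 (eccentric, 0.258, with 0 own markers among its leading genes) and cluster 18 (GABAergic, -0.426).

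Counts were summed per class and library. Levels have exact Poisson intervals, ratios exact conditional (Clopper-Pearson) intervals and shares exact binomial intervals, at 95%. Other tools were python 3.11.15, numpy 2.4.6, scipy 1.17.1 and pandas 2.3.3. The ratio code was tested on simulated data. The genes, marker lists and pathway lists were chosen with earlier results of these data known. Genes named were the 7 genes, pathway genes past 1.5-fold or else the 2 furthest from 0, and the 3 genes most like each of the 7; Slc1a4, Slc4a4 and the smaller Slc3a2 ratios were named after their values were seen. A few pathway genes that this rule picks are not reported here. Slc1a1, Glul, Slc7a10 and Srr overlap another annotated gene in GRCr8. No source used here says whether counting used the strand, so reads of overlapping genes may be mixed.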

Additional observations from a re-analysis of the deposited data

Results flagged for a closer look

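Glul moved in opposite directions in 2 classes for urolithin A over low anxiety: the log2 ratio was 0.81 (0.46 to 1.16) in astrocytes and -0.35 (-0.55 to -0.16) in oligodendrocytes. The difference between the classes was not tested, and a stricter filter on nuclei turned the oligodendrocyte value to 0.39. With no filter on nuclei the astrocyte value was 0.51, under 1.5-fold. Oligodendrocyte markers in the astrocyte class summed to 729 CPM with urolithin A and 381 CPM in low anxiety, and their part was not tested.

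An unnamed cluster outside every comparison, cluster 24, had 412 CPM of Glul over the 3 libraries, above the 358 CPM of astrocytes. Its 48 nuclei were led by Flt1, Vtn and Rgs5 among others and scored highest on the endothelial and mural marker lists. The library values were 495 CPM with urolithin A, 201 CPM in high anxiety and 315 CPM in low anxiety, from 42, 4 and 9 UMIs.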

How the results depend on the processing

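The alternatives covered the filter on nuclei, doublets, clustering resolution, the genes used for clustering, scaling, the largest cluster only, thinning, and, added after seeing the data, nuclei with at least 2000 UMIs and eccentric neurons without the clusters mostly of low anxiety. Thinning to 2000 UMIs turned Ddo in D2 neurons for urolithin A over high anxiety to a log2 ratio of 0.10, on 18 and 16 UMIs. Slc7a10 in astrocytes for high anxiety over low anxiety moved to -0.33 when thinned and to -0.46 in nuclei of at least 2000 UMIs. With a minimum of 200 UMIs, the number of gene and class pairs past 1.5-fold became 1 for high anxiety over low anxiety, 0 for urolithin A over high anxiety and 0 for urolithin A over low anxiety. With a smaller fold threshold the last 2 became 3 and 2, and with a minimum of 50 UMIs the last became 3. Of 45 ratios, thinning left 29 within counting error of the value given, the stricter filter 35, no filter 42 and nuclei of at least 2000 UMIs 43; resolution 0.5, resolution 2 and median of ratios scaling left all 45. The causes of these shifts were not tested. No paired analysis was possible because each group had 1 library. Depth limits Ddo and Srr most, with at most 152 UMIs in any class and library.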

Other observations

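Cluster 27, 42 nuclei that stayed unnamed between the vascular leptomeningeal and astrocyte marker lists, had 1539 CPM of Slc1a2, 2560.4 CPM of Slc1a3 and 209 CPM of Slc7a10 over the 3 libraries. Its Slc1a3 level was below the 3426 CPM of astrocytes, and its Slc1a2 level further below their 6755 CPM. It held 1 nucleus from the urolithin A library, 17 from high anxiety and 24 from low anxiety, so it allowed no comparison.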
